A study of Gasterosteus aculeatus with 9 samples.

Results

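The oxidative phosphorylation system was described here from 71 protein names among the 10495 that the annotated gill transcriptome of the threespine stickleback (Gasterosteus aculeatus) carries. The rule for members used names and no expression value, but it was set with earlier results of these data known. It took every transcript whose first Swiss-Prot entry is a subunit of complexes I to V by its entry name, such as NDUS1, QCR2, COX5A or ATPB. The rule took 297 of 98643 transcripts, of which 43772 have a Swiss-Prot name. Of the 71 names, 8 (ATP6, COX1, COX2, COX3, CYB, NU1M, NU4M and NU5M) belong to proteins encoded by the mitochondrial genome and were carried by 132 transcripts. The other 63 names belong to proteins encoded in the nucleus, with 165 transcripts: 33 names of complex I, 2 of complex II, 8 of complex III, 12 of complex IV and 8 of complex V. A name is that of the most similar protein in another species, so a name can stand for several stickleback genes. It need not hold all transcripts of a gene, since some carry a member name only as a later entry. NDUA4 was placed with complex IV, the complex in which this subunit is known to sit. NU2M, NU3M, NU4LM and NU6M, the other names of the rule for proteins encoded in the organelle, were not found as the first entry of any transcript.

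In the inner mitochondrial membrane, complex I takes electrons from NADH and complex II takes them from succinate, complex III passes them on to cytochrome c, and complex IV reduces oxygen. Complexes I, III and IV pump protons, and complex V, the ATP synthase, uses the proton gradient to make ATP. All but complex II are built from subunits of both genomes. In fish gills the ionocytes, which take up or secrete salt with the Na+/K+-ATPase, are known as mitochondrion-rich cells, whereas the pavement cells that cover the gill hold fewer mitochondria.

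Gills of 9 wild sticklebacks were sequenced, 3 fish from each of 3 stations in the catchment of the River Boye in Germany. Chloride was 12.912 mg/L at station B (control, fish B1 to B3), 26.378 mg/L at station A (mid-salinity, fish A1 to A3) and 32 mg/L at station C (high-salinity, fish C1 to C3). The fish were caught in the field, neither their age nor their genotype is in the labels, and each station is a different stretch of water, so that chloride and other differences between the stations cannot be told apart. The question was which gill transcripts differ between the 2 saline stations and the control.

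Total counts per fish lay between 22049066 and 46214540. Levels are in CPM, a count scaled to a common library size, after TMM scaling, which corrects library totals for a few very abundant transcripts. The scaling factor was 0.567 in C2 and lay between 1.00 and 1.15 in the other 8 fish, so a TMM-scaled level of C2 is its library CPM divided by that factor. The library labelled gill from fish C2 stood apart by its markers. Its 13 liver markers found (of 20 listed) summed to 174060.0 CPM, against 81.9 to 267 CPM in the other 8 fish, where 4 to 6 of them were at 0. All 13 were higher in C2 than in every other fish, and none was at 0 there. In the same library 21 of 29 skeletal muscle markers were above all other fish (sum 36550.5 CPM, against 1226 to 10651 CPM). Of the ionocyte markers 10 of 16 were below all other fish (sum 1133 CPM, against 2797 to 12603 CPM), as were 7 of 11 gill epithelium markers (sum 3257 CPM, against 6193 to 10858 CPM). Among the other 8 fish the lowest ionocyte sum was that of A3. The markers of C2 go against its tissue label, and counts and fold changes of station C are therefore given with and without this fish. In whole tissue, fewer cells of a type and less RNA per cell cannot be told apart.

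The organelle-encoded names held a large share of the RNA. They took 10.9, 8.30 and 8.04% of all counts in B1 to B3, 8.83, 7.22 and 12.8 in A1 to A3 and 8.97, 17.4 and 9.58 in C1 to C3. The highest shares were those of C2 and A3, and the ranges of the 3 stations overlapped. Station B averaged 9.08% ± 1.58, station A 9.61% ± 2.85 and station C 11.99% ± 4.70 (SD over 3 fish), and the mean of C1 and C3 was 9.28%. Without C2 the means of the 3 stations thus differed by less than the spread between fish.

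The nucleus-encoded names together took far less. Their share was 0.883, 0.840 and 0.714% in B1 to B3, 0.853, 0.797 and 0.563 in A1 to A3 and 0.699, 0.904 and 0.707 in C1 to C3. C2 was again the highest, but A3 was the lowest of the 9 fish. Station B averaged 0.813% ± 0.0877, station A 0.738% ± 0.154 and station C 0.770% ± 0.116 (SD over 3 fish), and C1 and C3 averaged 0.703%. The ratio of organelle-encoded to nucleus-encoded counts was 12.3, 9.88 and 11.3 in B1 to B3, 10.3, 9.07 and 22.7 in A1 to A3 and 12.8, 19.3 and 13.5 in C1 to C3. The 2 highest ratios came from A3 and C2, where the organelle-encoded share was high in both fish while the nucleus-encoded share was at its lowest in A3 and at its highest in C2.

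**Figure D1:**
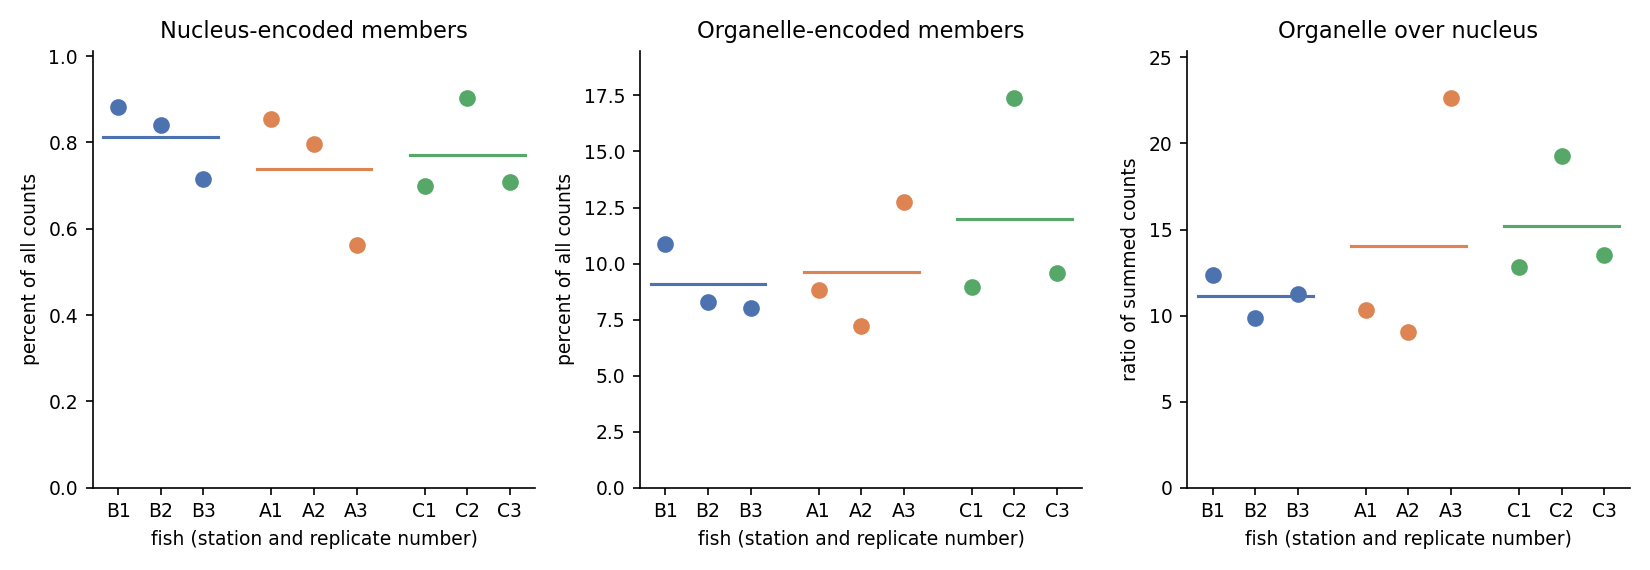
Nucleus-encoded and organelle-encoded respiratory chain and ATP synthase names as a percent of all counts, and the ratio of their summed counts, for each of the 9 fish. Points are fish, lines are station means, and the stations run from low to high chloride; A3 has the lowest nucleus-encoded share (0.563%) and the highest ratio (22.7), C2 the highest organelle-encoded share (17.4%).

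Nearly all of the organelle-encoded signal came from 1 assembled gene, DN13574_c0_g1, a unit of the Trinity assembly that holds transcripts with common sequence. It held between 97.7% and 98.6% of the organelle-encoded counts and between 7.07% and 17.1% of all counts of a fish. Its 6 transcripts carry the names COX1 (4 transcripts, i1, i6, i7 and i8), COX2 (i2) and NU5M (i9), subunits of complexes IV and I that lie on the same circular genome. NU5M as a name was this single transcript. COX1 holds the catalytic centre of complex IV, COX2 receives electrons from cytochrome c, and NU5M is a proton-pumping subunit of complex I. How reads were shared among these transcripts depended on the quantification with Salmon, and the 3 names are not independent measurements.

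The transcripts of this assembled gene did not all follow its total. Transcript i7 stood at 24248, 30110.3 and 24139.5 CPM in B1 to B3, 44904, 33180.5 and 72379 in A1 to A3 and 36382, 84545 and 59748 in C1 to C3, in CPM of the library total. The fish of station A (lowest 33180) and of station C (lowest 36382) were all above those of station B (highest 30110). Transcript i8 stood at 52260.3, 25181 and 35579 CPM in B1 to B3, 19535, 16745 and 22295 in A1 to A3 and 30534, 21479 and 16497 in C1 to C3, and the fish of station A (highest 22295) were all below those of station B (lowest 25181). In edgeR's quasi-likelihood test of single transcripts, the log2 fold changes of station A over station B were 0.93 for i7 (unadjusted p = 0.0388) and -0.95 for i8 (unadjusted p = 0.0235), and both had a Benjamini-Hochberg adjusted p of 1.00 over 51121 transcripts. The smallest adjusted p of the 188 member transcripts in that test was 0.353, in a transcript other than i7 and i8. Over station B, station C gave 1.63 for i7 (unadjusted p = 0.0767) and -0.46 for i8 (unadjusted p = 0.471). Among the member transcripts tested for A over B, 5 of 188 had an unadjusted p under 0.05, 3 higher and 2 lower, against 3.42% of all transcripts tested. For C over B it was 1 of 190 (2.71% of all transcripts) and for C over A 2 of 187 (3.63%). DESeq2 on single transcripts, a setting chosen after the data were seen, gave 10 of 180 for A over B (8.89% of all transcripts), 7 of 180 for C over B (8.27%) and 4 of 177 for C over A (8.36%). It called 0 of 180 member transcripts between A and B (1.39% of all transcripts) and 0 of 180 between C and B (1.36%).

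**Figure D2:**
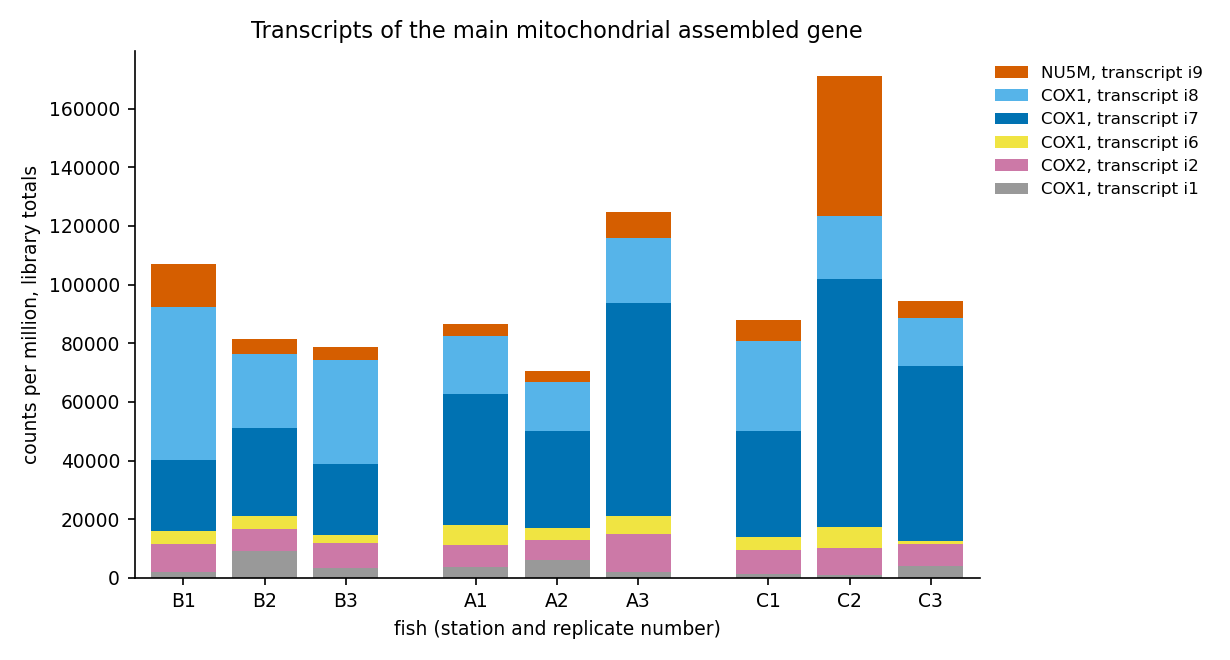
CPM of the library total for the 6 transcripts of the assembled gene that holds 97.7% to 98.6% of the organelle-encoded counts, stacked per fish. The COX1 transcripts i7 and i8 make up most of each bar, i7 is higher in every fish of stations A and C than at station B, and NU5M (i9) takes the largest part of its bar in C2 (27.9% of the assembled gene).

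NU5M stood at 14077, 4995 and 3855 CPM in B1 to B3, 4134, 3461 and 8533 in A1 to A3 and 6213, 84315 and 5015 in C1 to C3. C2 was far above every other fish, and B1 was the highest of the rest. Here and below, the standard error (SE) of an edgeR log2 fold change is its size divided by the square root of the F statistic. In edgeR the log2 fold change of C over B was 2.07 (SE 1.37, adjusted p = 0.846), and without C2 it was -0.43 (adjusted p = 0.901).

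COX1 stood at 81225, 69445 and 59981 CPM in B1 to B3, 74188, 55109 and 99741 in A1 to A3 and 63234, 202708 and 71037 in C1 to C3. COX2 stood at 9558, 7497 and 7778 CPM in B1 to B3, 7645, 6419 and 12611 in A1 to A3 and 7359, 16497 and 6306 in C1 to C3. COX3, another core subunit of complex IV that lay outside the main assembled gene, stood at 1116, 828 and 830.3 CPM in B1 to B3, 885, 733 and 1484 in A1 to A3 and 924, 3047 and 775 in C1 to C3. After TMM scaling all 3 names were highest in C2 and second highest in A3 (on library totals COX2 was highest in A3), and the ranges of the stations overlapped.

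CYB, the cytochrome b of complex III, stood at 51.0, 33.1 and 45.8 CPM in B1 to B3, 35.5, 29.1 and 74.5 in A1 to A3 and 39.6, 160.4 and 26.4 in C1 to C3. ATP6, the proton channel subunit of complex V, stood at 36.3, 25.1 and 28.8 CPM in B1 to B3, 22.1, 18.9 and 49.3 in A1 to A3 and 29.5, 132 and 12.8 in C1 to C3. In both, C2, A3 and B1 were the highest fish in that order, as in COX3, while the order of the other fish differed. COX3, CYB and ATP6 were spread over 22, 17 and 18 transcripts of 19, 15 and 15 assembled genes. None of these was the main assembled gene, which held nearly all organelle-encoded counts. Their levels are sums over the transcripts so named and may not be those of the whole stickleback genes. NU1M and NU4M of complex I stayed at or below 3.85 CPM in every fish. Every transcript of NU1M, and every one of NU4M apart from DN36258_c0_g1_i1, had an invertebrate entry. The levels of these names can thus not be read as those of the stickleback genes.

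All member names were tested one by one on counts summed per name. In edgeR's quasi-likelihood test of station A against station B, 67 of the 71 names passed edgeR's filter on low counts and 0 were called (more than 2-fold at an adjusted p no higher than 0.05), as among all 21626 names and unnamed assembled genes tested (0%). An unadjusted p under 0.05 was reached by 2 members, COX41 and NDUA5, both lower at station A, against 2.29% lower and 3.23% higher over all features. DESeq2 called 0 members as well (0.509% of all features) and gave 2 an unadjusted p under 0.05, both lower (2.55% of all features lower, 3.98% higher). Between C and B, 66 members were tested and 0 were called in edgeR (0% of 21950 features), and 0 had an unadjusted p under 0.05 (2.29% of all features higher, 1.44% lower). DESeq2 called 0 of them (0.278% of all features), and 1, lower, had an unadjusted p under 0.05 (2.46% of all features lower, 3.61% higher). Between C and A, 65 members were tested and 0 were called in edgeR (0.00455% of 21971 features), and 0 had an unadjusted p under 0.05 (2.59% of all features higher, 1.62% lower). DESeq2 called 0 there (1.23% of all features), and 0 had an unadjusted p under 0.05 (3.27% of all features higher, 2.64% lower).

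Between stations A and B, 7 of the 8 organelle-encoded names had a positive log2 fold change (median 0.13, range -0.49 to 1.30), none with an unadjusted p under 0.05 in edgeR. Without A3 all 8 were negative (median -0.48), with 1 at an unadjusted p under 0.05 in edgeR, ATP6 (log2 fold change -0.54, with 4.68% of all features lower and 4.8% higher at that p). Between stations C and B all 8 were positive after TMM scaling (median 0.73), and without C2 6 of 8 were negative (median -0.19), none with an unadjusted p under 0.05 in either fit. The direction of most of these names thus turned with a single fish in both comparisons. On library totals COX2 stood at 9819, 7513 and 8624 CPM in B1 to B3 and 8488, 9357 and 7264 in C1 to C3. Its highest and its lowest fish of station C were then each below those of station B. NU1M, which gave the value of 1.30, and NU4M were the names that stayed positive without C2. In B3, A3 and C1 most of their counts came from transcripts with insect entries found in those fish only. Without A3 their log2 fold changes of A over B were -2.84 and -2.56.

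Of the 63 nucleus-encoded names, 41 reached 10 CPM in at least 1 fish. Although no name passed the test, most had a negative log2 fold change of station A over station B. Of 59 tested, 53 were negative, with a median of -0.21, against 47.4% of all features and a median of 0.02. The groups did not overlap for 7 of them, all lower at station A (6.03% of all features were lower without overlap, 5.14% higher). NDUA1, NDUA5, CY1 and QCR6 among them stayed at or below 4.58 CPM in every fish. A3 was below both A1 and A2 in 37 of the 41 names that reached 10 CPM and was the lowest of the 9 fish in 24 of them. Without A3, 43 of 59 were negative and the median was -0.07, with 1 name, NDUA5, at an unadjusted p under 0.05 in edgeR (4.68% of all features lower, 4.80% higher) and 10 lower without overlap (14.9% of all features lower, 13.4% higher). With A3 included, 21 of 27 skeletal muscle markers (median 0.57) and 7 of 12 ionocyte markers (median 0.04) were higher at station A. So were 6 of 6 leukocyte markers (median 0.33), whereas 9 of 11 gill epithelium markers were lower (median -0.11). The part of these marker lists was not tested.

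For station C over station B, 35 of 58 nucleus-encoded names were positive (median 0.06), and after TMM scaling C2 was the highest of the 9 fish in 37 of the 41 names that reached 10 CPM and the lowest in 1. On library totals alone C2 was the highest in 12 of them and the lowest in 5, 10 of the 58 log2 fold changes were positive, and the median was -0.21 (all features -0.08, against 0.02 with TMM scaling). Without C2, 57 of 62 names were negative, with a median of -0.46 against 0.00 over all features. The values of C1 and C3 lay below all 3 fish of station B for 40 of the 62 (13% of all features were lower without overlap, 12.7% higher). In that fit 15 nucleus-encoded names had an unadjusted p under 0.05 in edgeR, all lower at station C (3.37% of all features lower, 2.83% higher), and 0 were called, with a smallest adjusted p of 0.752 among the members. In the same fit 27 of 27 skeletal muscle markers tested were lower as well (median -0.79). So were 9 of 13 ionocyte markers (median -0.11) and 7 of 11 gill epithelium markers (median -0.17). Of the leukocyte markers 0 of 6 were lower (median 0.46). The part of these markers in the result was not tested.

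For station C over station A, 49 of 58 names were positive with C2 (median 0.33, all features 0.03), and 31 of 58 on library totals alone (median 0.01, all features -0.10). Without C2, 56 of 63 were negative (median -0.23, all features -0.03), 7 without overlap (10.2% of all features were lower without overlap, 11.8% higher), and 2 had an unadjusted p under 0.05 in edgeR, COX5A and NDUA2, both lower (3.2% of all features lower, 2.97% higher). In that fit 28 of 28 skeletal muscle markers (median -1.26) and 9 of 13 ionocyte markers (median -0.44) were lower too. Of the gill epithelium markers 5 of 11 were lower (median 0.007), and of the leukocyte markers 3 of 6 (median -0.004). The part of these markers was not tested.

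**Figure D3:**
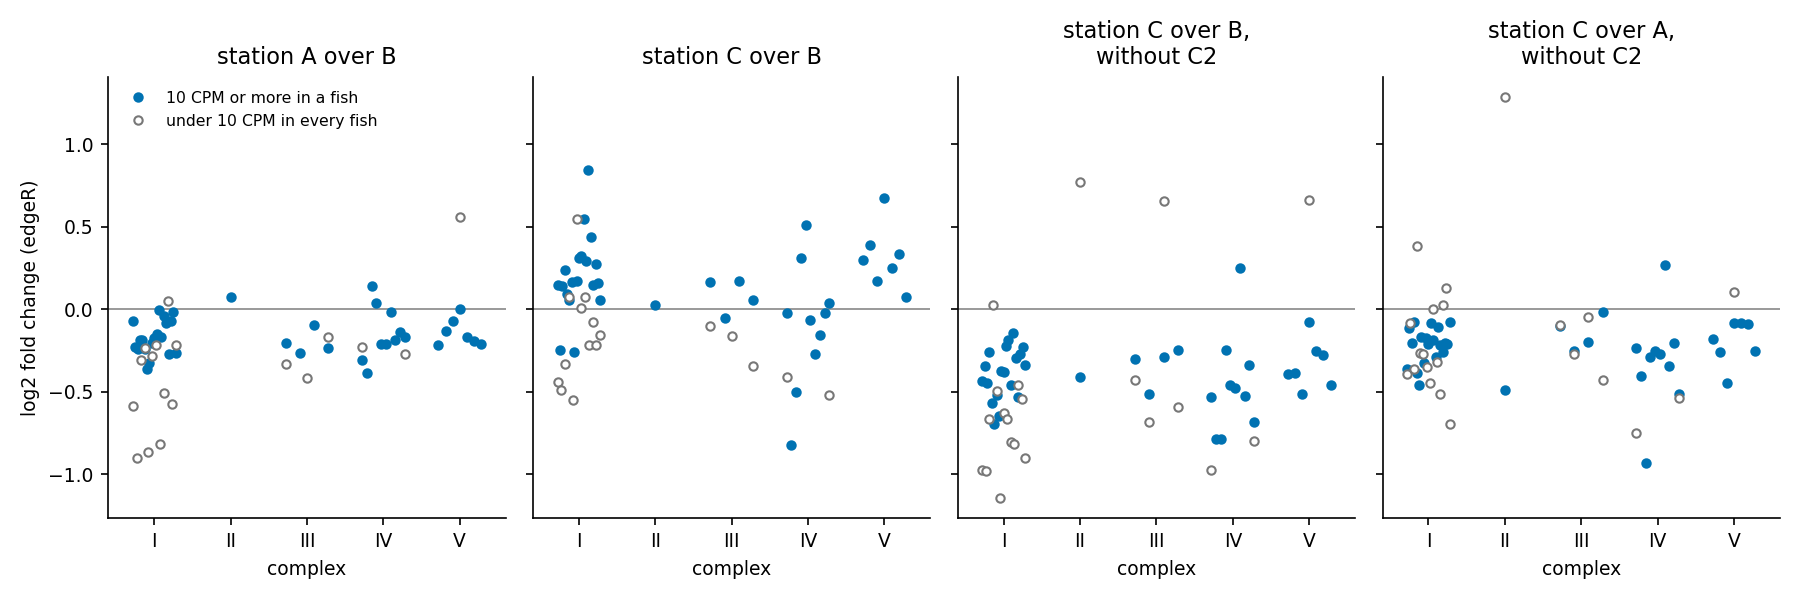
Log2 fold changes of the nucleus-encoded names by complex, from edgeR, for station A over B, station C over B with and without fish C2, and station C over A without C2. Each point is a name (filled, 10 CPM or more in a fish; open, under 10 CPM in every fish); in the comparison of C and B the TMM-scaled points lie on both sides of 0 with C2 (10 of 58 above 0 on library totals) and mostly below 0 without it.

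In complex I, 30 of 31 names tested were lower at station A than at station B (median -0.23), 21 of 31 were higher at station C than at station B (median 0.09, but 5 of 31 on library totals alone, median -0.18), and 31 of 32 were lower at station C without C2 (median -0.48), 9 of them with an unadjusted p under 0.05 in edgeR (3.37% of all features lower, 2.83% higher). NDUV1, the subunit that binds NADH, stood at 142, 128 and 109 CPM in B1 to B3, 156, 127 and 88.5 in A1 to A3 and 109, 207 and 106 in C1 to C3. NDUS7, an iron-sulfur subunit next to the ubiquinone site, stood at 129, 126 and 105 CPM in B1 to B3, 129.8, 122 and 88.7 in A1 to A3 and 93.8, 236 and 104 in C1 to C3. For both, the ranges of A and B overlapped, C1 and C3 lay within 1 CPM of the lowest fish of station B or below it, and after TMM scaling C2 was the highest of all. On library totals C2 remained the highest for NDUS7, whereas A1 was the highest for NDUV1.

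NDUS1, the iron-sulfur subunit that was raised most in C2, stood at 15.4, 13.6 and 9.19 CPM in B1 to B3, 12.8, 10.3 and 13.7 in A1 to A3 and 11.8, 45.3 and 11.2 in C1 to C3. The other 8 fish lay between 9.19 and 15.4 CPM. Its log2 fold change of C over B was 0.84 (SE 0.62, edgeR adjusted p = 0.846) and -0.14 without C2.

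Among the accessory subunits, which surround the catalytic core, NDUAC had the lowest unadjusted p of the members for station C over station B without C2. It stood at 96.1, 90.5 and 69.7 CPM in B1 to B3, 89.4, 72.5 and 53.6 in A1 to A3 and 52.1, 161 and 52.8 in C1 to C3. C1 and C3 were well below every fish of station B, and A3 was close to them. Its log2 fold change of C over B without C2 was -0.70 (edgeR unadjusted p = 0.00787, adjusted p = 0.752), against 0.06 with C2.

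NDUAD, an accessory subunit also known as GRIM-19, stood at 149, 173 and 139 CPM in B1 to B3, 137, 121 and 97.5 in A1 to A3 and 108, 301 and 105 in C1 to C3. All 3 fish of station A were below all 3 of station B, with a log2 fold change of -0.36 (SE 0.17, edgeR adjusted p = 0.873). C1 and C3 were lower than station B too, with a log2 fold change of -0.52 without C2 (unadjusted p = 0.0109).

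NDUB1 stood at 12.97, 15.3 and 11.97 CPM in B1 to B3, 11.03, 10.6 and 10.3 in A1 to A3 and 8.62, 16.4 and 8.45 in C1 to C3, with every fish of station A below every fish of station B. After TMM scaling C2 was the highest fish for NDUB1, whereas on library totals it was the lowest (9.30 CPM). NDUBA stood at 74.7, 84.7 and 69.5 CPM in B1 to B3, 85.4, 74.1 and 67.0 in A1 to A3 and 63.8, 200.02 and 69.5 in C1 to C3, and NDUS4, a subunit needed for the assembly of the NADH-binding arm in mammals, stood at 61.0, 59.0 and 47.8 CPM in B1 to B3, 55.6, 50.1 and 51.2 in A1 to A3 and 44.3, 136 and 46.3 in C1 to C3. NDUBA and NDUS4 were among the names with the largest positive log2 fold change of C over B (0.55 and 0.44), and both were negative without C2 (-0.19 and -0.30).

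The most negative fold changes of complex I for A over B came from names at low levels. NDUA5 stood at 1.13, 1.14 and 0.993 CPM in B1 to B3, 0.536, 0.451 and 0.740 in A1 to A3 and 0.665, 1.26 and 0.432 in C1 to C3. All fish of station A were below all fish of station B, with a log2 fold change of -0.90 (SE 0.34, edgeR unadjusted p = 0.0334, adjusted p = 0.873). NDUA1, NDUB6, NDUBB, NDUS2 and NDUS5, the other names with large negative values for A over B, had log2 fold changes between -0.86 and -0.51 at levels of at most 3.201 CPM. NDUB7 and NDUS3, under 3 CPM in every fish, had values of 0.55 for C over B (-0.63 without C2) and 0.05 for A over B. For C over B, NDUA1, NDUA5 and NDUB6 gave -0.44, -0.49 and -0.55, or -0.97, -0.98 and -1.14 without C2. NDUBB gave 0.93 for C over A with C2 and 0.00 without it.

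Complex II was read mainly from SDHB, its iron-sulfur subunit, which stood at 129.6, 122.5 and 96.6 CPM in B1 to B3, 154, 122 and 87.2 in A1 to A3 and 92.0, 180.5 and 81.6 in C1 to C3. The fish of A and B overlapped (log2 fold change 0.07, SE 0.23), and C1 and C3 lay below all fish of station B (log2 fold change -0.41 without C2, edgeR adjusted p = 0.752). The name was carried mainly by the assembled gene DN2824_c0_g1. A lower one, DN2824_c0_g2, stood at 8.04, 5.05 and 5.86 CPM in B1 to B3, 37.0, 29.5 and 8.78 in A1 to A3 and 5.10, 16.4 and 5.20 in C1 to C3. Every fish of station A was above every fish of station B, A3 by less than 1 CPM. In edgeR on assembled genes its log2 fold change was 2.00 for A over B (unadjusted p = 0.00551, adjusted p = 0.836), -1.46 for C over A (unadjusted p = 0.0868) and 0.51 for C over B (unadjusted p = 0.388), and it is given here because of these values. The name SDHA, the flavoprotein subunit, was carried by a single transcript that had counts in B3, A3 and C1 only.

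In complex III, 7 of 7 names tested were lower at station A than at station B (median -0.23), and 7 of 8 were lower at station C without C2 (median -0.36), against 4 of 7 with it after TMM scaling and 7 of 7 on library totals alone. QCR1, a core protein of the matrix side, stood at 338, 311 and 254 CPM in B1 to B3, 332, 258 and 187 in A1 to A3 and 239, 523 and 247 in C1 to C3. UCRI, the Rieske iron-sulfur protein, stood at 168, 169 and 122 CPM in B1 to B3, 156, 124 and 107 in A1 to A3 and 132, 218 and 124 in C1 to C3. QCR10 stood at 176, 182 and 125 CPM in B1 to B3, 166, 141 and 93.2 in A1 to A3 and 120.0, 239 and 105 in C1 to C3, and with a log2 fold change of -0.51 it was the complex III name with an unadjusted p under 0.05 for C over B without C2 (edgeR unadjusted p = 0.0474). In all 3 names A3 was the lowest fish of its station, and after TMM scaling only C2 lay above the fish of station B. On library totals a fish of station B was the highest in each.

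CY1, the cytochrome c1 of complex III, stood at 3.04, 2.77 and 2.60 CPM in B1 to B3, 1.83, 2.49 and 2.28 in A1 to A3 and 2.61, 3.68 and 1.54 in C1 to C3, and QCR6 stood at 3.11, 3.08 and 3.34 CPM in B1 to B3, 2.50, 1.95 and 2.64 in A1 to A3 and 2.41, 4.58 and 1.52 in C1 to C3. For both names the fish of station A lay below those of station B, with log2 fold changes of -0.33 (SE 0.27) and -0.42 (SE 0.27), neither with an unadjusted p under 0.05 in edgeR. Both stood far below QCR1, UCRI and QCR10 of the same complex. Their levels are those of the transcripts so named and may not be those of the whole stickleback genes.

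In complex IV, 10 of 12 nucleus-encoded names were lower at station A than at station B (median -0.20), 9 of 12 were lower at station C than at station B with C2 (median -0.11) and 11 of 12 without it (median -0.53). COX41, the form of subunit 4 that most tissues use, stood at 222, 240.5 and 206 CPM in B1 to B3, 178, 188 and 171 in A1 to A3 and 170.2, 350.4 and 136 in C1 to C3. All 3 fish of station A were below all 3 of station B, with a log2 fold change of -0.31 (SE 0.13, edgeR unadjusted p = 0.0474, adjusted p = 0.873), and -0.28 without A3 (unadjusted p = 0.0679). At station C, C1 and C3 were below every fish of station B as well, with a log2 fold change of -0.53 without C2 (unadjusted p = 0.0146).

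The COX41 transcript DN80_c3_g2_i5 stood at 83.2, 90.9 and 83.0 CPM in B1 to B3, 59.8, 65.7 and 59.8 in A1 to A3 and 71.8, 96.8 and 59.8 in C1 to C3. DESeq2 on single transcripts gave it a log2 fold change of A over B of -0.46 (SE 0.10) with an adjusted p of 1.78e-04, short of the fold change above 2 that a call asked for, and edgeR gave -0.48 with an adjusted p of 1.00. Of 180 member transcripts the same setting gave 1 other an adjusted p of at most 0.05 in this comparison, DN7355_c0_g2_i8 of AT5G3 (log2 fold change -0.72, SE 0.21, adjusted p = 0.0418), with edgeR at an adjusted p of 1.00. The assembled gene of the COX41 transcript also holds a transcript whose first name is EMC8, a subunit of a complex in the endoplasmic reticulum membrane, and whose later name is COX41. It stood at 410.1, 412 and 347 CPM in B1 to B3, 439.8, 411 and 251 in A1 to A3 and 305, 383 and 326 in C1 to C3 on library totals, with overlapping ranges of A and B, and it is not counted in COX41. Where these transcripts share sequence, Salmon divided the reads between them, so the lower level of COX41 at station A holds for the transcripts named COX41 first. For the assembled gene DN80_c3_g2 as a whole, which includes that transcript, edgeR gave a log2 fold change of A over B of -0.16 (unadjusted p = 0.434, adjusted p = 0.936).

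COX42, the other form of subunit 4, which responds to oxygen in mammals, stood at 13.7, 20.4 and 14.4 CPM in B1 to B3, 14.2, 10.2 and 12.5 in A1 to A3 and 12.4, 8.61 and 6.27 in C1 to C3. After TMM scaling it was the member whose fish of station C lay below those of station B with C2 included. Its log2 fold change was -0.82 (SE 0.34, edgeR adjusted p = 0.846), and -0.78 without C2 (adjusted p = 0.752). Over station A, station C gave -0.41 (SE 0.34) and -0.40 without C2, with overlapping ranges. Over all features 7.13% were lower and 6.14% higher at station C than at station B without overlap after TMM scaling. On library totals COX42 overlapped (C1 at 14.3 CPM, B1 at 14.1). Other members then had every fish of station C below every fish of station B, among them COX41, COX5A, NDUB1 and SDHB.

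COX5A, a small subunit on the matrix side, stood at 12.3, 16.3 and 10.9 CPM in B1 to B3, 16.3, 13.9 and 13.1 in A1 to A3 and 7.54, 12.7 and 7.68 in C1 to C3. The log2 fold change of C over B was -0.50 (SE 0.32) and -0.79 without C2, and that of A over B was 0.14 (SE 0.22). The fish of station C lay below those of station A, with a log2 fold change of -0.60 (SE 0.31, edgeR adjusted p = 0.962) and -0.93 without C2 (adjusted p = 0.377). After TMM scaling it was the member whose groups C and A did not overlap with C2 included (4.86% of all features were lower without overlap, 5.23% higher). On library totals NDUB1 did not overlap either, with at most 9.93 CPM at station C and at least 10.7 CPM at station A. DESeq2 on single transcripts called 1 of 177 member transcripts in this comparison, the COX5A transcript DN613_c0_g1_i6, with a log2 fold change of -1.17 (SE 0.35, adjusted p = 0.0345, 2.40% of all transcripts called). That transcript stood at 4.78, 11.9 and 4.45 CPM in B1 to B3, 8.70, 10.8 and 7.001 in A1 to A3 and 2.89, 4.51 and 4.10 in C1 to C3, and edgeR gave it an adjusted p of 1.00.

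COX5B stood at 339, 288 and 208 CPM in B1 to B3, 339, 288 and 223 in A1 to A3 and 233, 565 and 233 in C1 to C3, and COX7B stood at 269.8, 277 and 189.8 CPM in B1 to B3, 263, 222 and 147 in A1 to A3 and 185, 349.5 and 166 in C1 to C3. After TMM scaling both were highest in C2, and on library totals in a fish of station B, with overlapping ranges of the stations. COX7C and COX7R (a protein related to subunit 7A) stayed at or below 2.77 CPM, with log2 fold changes of C over B of -0.41 (SE 0.65) and -0.52 (SE 0.40), or -0.97 and -0.80 without C2.

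Several small subunits of complex IV have forms that differ between tissues in mammals, and 3 names were carried by a pair of well covered assembled genes of which 1 was high in C2 alone. The COX6A gene DN3403_c0_g1 stood at 324, 321 and 227 CPM in B1 to B3, 277, 256 and 175 in A1 to A3 and 225, 223 and 196 in C1 to C3. The COX6A gene DN5636_c0_g1 stood at 3.45, 12.5 and 16.2 CPM in B1 to B3, 18.6, 13.2 and 37.0 in A1 to A3 and 4.43, 623 and 11.7 in C1 to C3. After TMM scaling the first had its C2 value within the range of the other fish. On library totals C2 was its lowest fish (0.38 times the highest other fish). The second was 16.9 times higher in C2 than in the next fish, A3 (9.17 times on library totals). For the name as a whole the log2 fold change of C over B was 0.51 (SE 0.61) and -0.46 without C2.

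For CX7A2 the same split was seen. The gene DN6349_c0_g2 stood at 149, 145 and 91.0 CPM in B1 to B3, 141, 119.9 and 86.5 in A1 to A3 and 100.91, 107 and 100.97 in C1 to C3, and the gene DN13090_c0_g1 at 2.38, 1.26 and 1.86 CPM in B1 to B3, 1.34, 2.61 and 1.45 in A1 to A3 and 2.00, 70.3 and 1.45 in C1 to C3. The second was 26.9 times higher in C2 than in any other fish (13.9 times on library totals). On library totals the first was lowest in C2 (0.40 times the highest other fish). For NDUA4, the gene DN9244_c0_g2 stood at 548, 576 and 379 CPM in B1 to B3, 596, 483 and 238 in A1 to A3 and 337, 706 and 284 in C1 to C3, and the gene DN6135_c0_g1 at 5.29, 7.95 and 6.03 CPM in B1 to B3, 6.47, 3.55 and 13.9 in A1 to A3 and 2.93, 222 and 5.77 in C1 to C3. Here the second was 15.9 times higher in C2 than in A3, the next fish (8.67 times on library totals). The first was 706 CPM in C2 and 238 to 596 CPM in the other fish. On library totals its C2 level was 0.66 times that of the highest other fish.

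CX6B1, a small subunit on the outer side of complex IV, went the other way. It stood at 71.3, 98.1 and 60.1 CPM in B1 to B3, 79.1, 108 and 38.7 in A1 to A3 and 94.8, 8.61 and 86.5 in C1 to C3. C2 was the lowest of the 9 fish and A3 the second lowest, and the log2 fold change of C over B was -0.27 with C2 and 0.25 without it, neither with an unadjusted p under 0.05 in edgeR. Of the 48 assembled genes of nucleus-encoded members that reached 10 CPM in a fish, C2 was the highest fish in 41 and the lowest in 1 after TMM scaling, and the highest in 16 and the lowest in 7 on library totals. The liver and skeletal muscle markers given above moved with these forms in C2, and their part in the result was not tested.

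**Figure D4:**
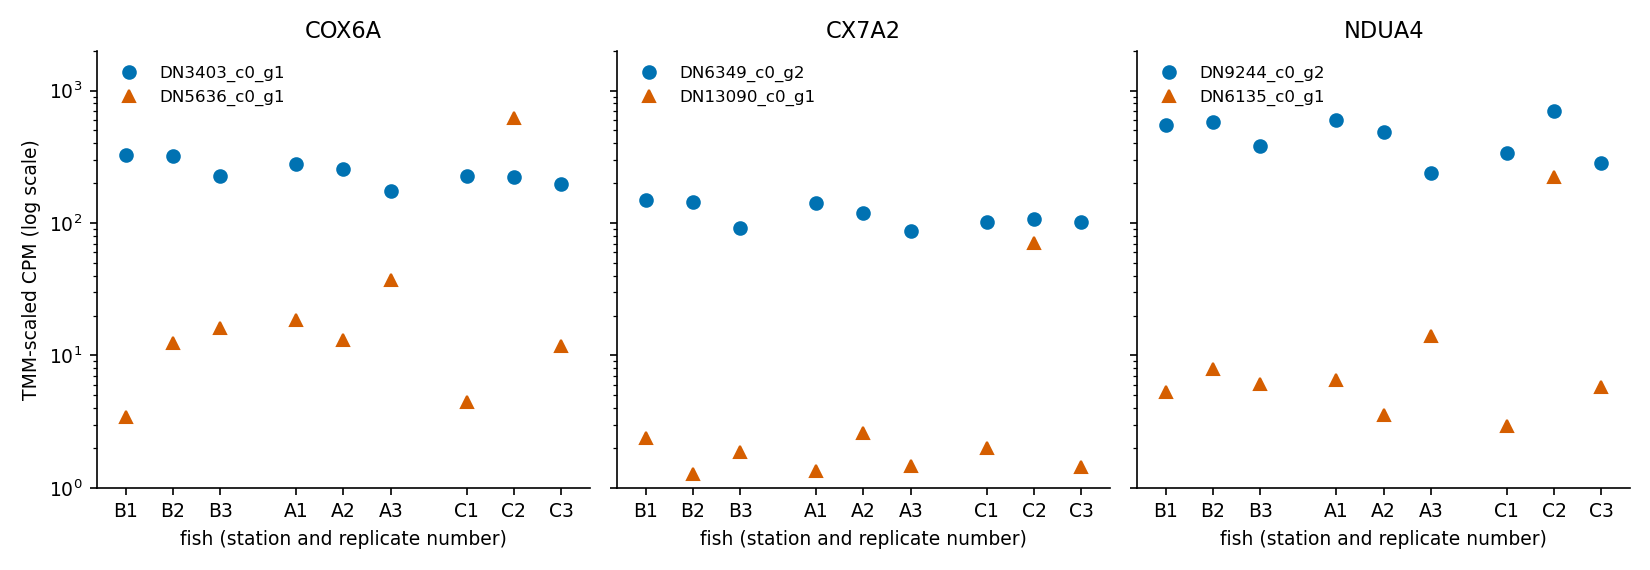
TMM-scaled CPM (log axis) of the main pair of assembled genes that carry each of the names COX6A, CX7A2 and NDUA4, by fish. Circles show the gene that is well expressed in all fish (C2 at 223, 107 and 706 CPM), triangles the gene that is high in C2 (623, 70.3 and 222 CPM) and at or below 37.0, 2.61 and 13.9 CPM in the other 8 fish. On library totals, which are not drawn, C2 is the lowest fish for the circles of COX6A and CX7A2.

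In complex V, 6 of 8 names tested were lower at station A than at station B (median -0.15), 7 of 7 tested were higher at station C than at station B with C2 (median 0.30, but 3 of 7 on library totals alone, median -0.02), and 7 of 8 were lower without it (median -0.33). ATPB, the catalytic subunit beta, stood at 1224, 978 and 881 CPM in B1 to B3, 1183, 1071 and 809 in A1 to A3 and 882, 2959.9 and 1059 in C1 to C3. Its log2 fold change was 0.00 for A over B (SE 0.21) and -0.07 for C over B without C2. With C2 the value for C over B was 0.68 (SE 0.55, edgeR adjusted p = 0.846).

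ATPO, the stalk subunit that ties the catalytic head to the membrane part, stood at 479, 554 and 404 CPM in B1 to B3, 509.7, 422 and 301 in A1 to A3 and 345, 809 and 349 in C1 to C3. C1 and C3 were below every fish of station B (log2 fold change -0.46 without C2, edgeR unadjusted p = 0.0380), and A3 was the lowest of all fish. AT5G3, the subunit c that forms the rotating ring, stood at 1177, 1123 and 826 CPM in B1 to B3, 1136, 959 and 735 in A1 to A3 and 774, 2489 and 810.5 in C1 to C3. It was carried by 3 assembled genes, and in each of them C2 was the highest fish and A3 the lowest. The name AT5G, a subunit c entry of the tobacco hornworm, was found in B3, A1, A3 and C1 only, at 4.14 CPM or less, and its log2 fold change of A over B was 0.56 (SE 2.05).

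The nucleus-encoded share was set beside the ionocyte markers fish by fish. The 16 ionocyte markers found took 1.01, 1.21 and 0.739% of all counts in B1 to B3, 1.28, 1.21 and 0.292 in A1 to A3 and 0.767, 0.0642 and 0.727 in C1 to C3. Of the 8 fish other than C2, the 4 with the highest ionocyte share (A1, B2, A2 and B1) were also the 4 with the highest nucleus-encoded share. A3, with the lowest nucleus-encoded share, had the lowest ionocyte share of these 8. C1 and C3, which were below B1 and B2 in both measures, were close to B3 in both: the nucleus-encoded share was 0.699% in C1, 0.707% in C3 and 0.714% in B3, and the ionocyte share 0.767%, 0.727% and 0.739%. C2 had the lowest ionocyte share and the highest nucleus-encoded share. The organelle-encoded share did not run with the ionocyte share. Of the 8 fish other than C2 it was highest in A3 (12.8% of all counts) and lowest in A2 (7.22%). Of the markers, AT1A1, the alpha subunit of the Na+/K+-ATPase, stood at 3148, 2724 and 1985 CPM in B1 to B3, 5309, 3521 and 1019 in A1 to A3 and 2463, 731 and 2416 in C1 to C3, and S12A3, the Na+-Cl- cotransporter that many freshwater fish use to take up salt, stood at 2217, 2399.6 and 1864 CPM in B1 to B3, 1874, 2084 and 343 in A1 to A3 and 969, 12.04 and 1101 in C1 to C3. The markers RHCG, RHCG1, RHBG, FOXI1 and SL9A3 were likewise lowest in A3 among the 8 fish other than C2. Others were not low in A3. S12A2 stood at 113 CPM there (85.8, 97.7 and 111 in B1 to B3) and VATB2 at 155 (151, 161 and 130). SL9A2 stood at 10.8 CPM in A3, the highest of all fish. The part of the ionocyte markers in the lower nucleus-encoded levels of A3, C1 and C3 was not tested.

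**Figure D5:**
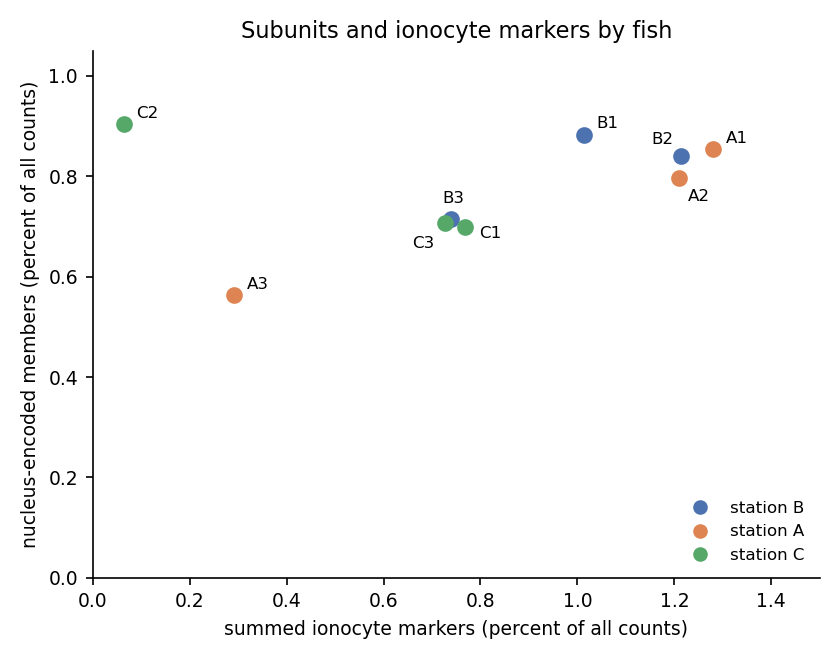
Nucleus-encoded respiratory chain and ATP synthase names against the 16 ionocyte markers, both as a percent of all counts, with 1 point per fish. The 8 fish other than C2 run from A3 (0.292% and 0.563%) to the fish with the highest marker share, A1 (1.28% and 0.853%), and C2 lies apart (0.0642% and 0.904%).

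The lists of related mitochondrial genes gave 0 calls in edgeR in all 3 comparisons. Of 22 names of complexes II to V outside the rule, 14 of 16 tested were lower at station A than at station B (median -0.19), and 16 of 20 were lower at station C without C2 (median -0.43), 5 with an unadjusted p under 0.05 (3.37% of all features lower). The medians over all features were 0.02 for A over B and 0.00 for C over B without C2. Of the 8 complex IV assembly factors, 6 were lower at station A than at station B, and 8 of 8 were lower at station C without C2 (median -0.41). The medians of the citric acid cycle were -0.10 for A over B (15 tested) and -0.24 for C over B without C2 (12 of 15 lower, 4 with an unadjusted p under 0.05). Those of the carriers and porins were 0.01 and -0.35 (13 of 13 lower at station C without C2). The 11 names of mitochondrial transcription and biogenesis had medians of -0.11 and -0.04, and the 5 of uncoupling and alternative oxidation -0.11 and -0.08.

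Of the 8 names tested in the list of complex I assembly factors and other complex I names outside the rule, 5 were lower at station A than at station B. ACAD9, which mammals need for the assembly of complex I, had the lowest unadjusted p of the names in these lists (0.000148 for A over B in edgeR) and stood at 0.753, 1.02 and 1.20 CPM in B1 to B3, 4.64, 5.32 and 7.14 in A1 to A3 and 4.39, 7.40 and 9.58 in C1 to C3. All 6 fish of the saline stations lay above all 3 of station B, with a log2 fold change of 2.54 for A over B (SE 0.33, edgeR adjusted p = 0.255) and of 2.85 for C over B (SE 0.43, adjusted p = 0.846), or 2.83 without C2 (adjusted p = 0.542). The same 3 fish of station B serve in both comparisons. ECSIT, another assembly factor, stood at 42.1, 43.1 and 31.1 CPM in B1 to B3, 29.2, 26.6 and 22.6 in A1 to A3 and 28.3, 56.7 and 29.8 in C1 to C3, and every fish of station A was below every fish of station B (log2 fold change -0.56, SE 0.19, edgeR adjusted p = 0.873).

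FUMH, the fumarase of the citric acid cycle, stood at 94.4, 114 and 99.6 CPM in B1 to B3, 85.8, 83.5 and 74.1 in A1 to A3 and 73.8, 60.0 and 54.7 in C1 to C3. The fish of stations A and C were all below those of station B, with log2 fold changes of -0.33 (SE 0.14) for A over B and -0.70 (SE 0.20) for C over B. After TMM scaling C2 lay between C1 and C3, whereas on library totals it was the lowest of the 9 fish. Without C2 the value for C over B was -0.67. KCRU, a mitochondrial creatine kinase, stood at 10.3, 12.2 and 4.79 CPM in B1 to B3, 21.8, 13.5 and 31.4 in A1 to A3 and 8.11, 16.3 and 7.10 in C1 to C3, higher in every fish of station A than in every fish of station B (log2 fold change 1.31, SE 0.44). DPOG1, the catalytic subunit of the mitochondrial DNA polymerase, stood at 8.70, 10.9 and 6.88 CPM in B1 to B3, 10.5, 9.94 and 13.1 in A1 to A3 and 13.4, 16.8 and 14.4 in C1 to C3. After TMM scaling all fish of station C were above those of station B (log2 fold change 0.75, SE 0.26, and 0.66 without C2). On library totals C2 lay below B2, so the groups overlapped. ATPMK, a small subunit of the ATP synthase outside the rule, stood at 13.3, 14.1 and 18.6 CPM in B1 to B3, 24.1, 17.6 and 17.3 in A1 to A3 and 9.90, 11.99 and 7.81 in C1 to C3, lower in every fish of station C than in every fish of station A (log2 fold change -0.96, SE 0.29, and -1.16 without C2). All 4 had an unadjusted p under 0.05 and an adjusted p between 0.846 and 0.898 in edgeR.

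A set of low member transcripts was found in 3 fish of 3 different stations only. Over the whole series, 603 transcripts had at least 10 counts in each of B3, A3 and C1 and at most 3 counts in every other fish, while the next of the 84 ways to take 3 of 9 fish had 43. Of the 603, 18 were member transcripts, in 18 names, with 12 to 168 counts in the 3 fish and 0 in the other 6. Their summed CPM of the library total was 28.8 in B3, 30.8 in A3 and 34.0 in C1. The closest entry was that of an invertebrate in 8 of the 18, among them AT5F1, ATPO and NDUS3 of the fruit fly Drosophila melanogaster and NDUS7 of a roundworm, and for the other transcripts it was a vertebrate, such as the zebrafish for SDHA. Over all 603, 21.4% of the named transcripts had a listed invertebrate entry, against 1.55% of all named transcripts. These transcripts made up most of the counts of 7 names in the 3 fish, AT5G, NDUA9, NDUS3, NU1M, NU4M, QCR7 and SDHA, so that the levels of these names in the 3 fish rest on them. In the 3 fish they were 26.7 to 44.2% of QCR8, 6.56 to 10.8% of COX5A and 4.97 to 8.03% of CYB. In ATPO, NDUS7, COX41 and AT5F1 they were at most 0.948% of the name.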

How the data were processed

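Gill RNA of 9 wild sticklebacks was sequenced as paired reads of 100 bases on an Illumina HiSeq instrument. The authors trimmed the reads with Trimmomatic, assembled 1 transcriptome from all fish with Trinity (version 2.9.1), removed transcripts below a minimum expression of 1.0, quantified the rest with Salmon (version not given in the sources used here) and annotated them with Trinotate (version 3.2.2). The deposited values are estimated counts per transcript (expected counts, 48.8% of them whole), summed here per first Swiss-Prot entry name (or per assembled gene, where unnamed) and rounded to whole numbers. Salmon divides reads among similar transcripts, which limits how well single transcripts and related genes can be told apart. The median library total was 35193784.

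Each pair of stations was tested over all names by edgeR (version 4.0.16, R 4.3.3) with filterByExpr, TMM scaling and the quasi-likelihood test with no blocking. A call needed a change of more than 2-fold with a p no higher than 0.05 after Benjamini-Hochberg adjustment. DESeq2 (version 1.42.0), other scalings and filters, single transcripts, sums per assembled gene, all 9 fish in 1 fit, the replicate number as a block and leaving out each fish were alternatives. DESeq2 on single transcripts and a fit without the transcripts found in 3 fish only were added after the data were seen. An exact test of 3 fish against 3 could not give a two-sided p under 0.1, so none is printed. Groups without overlap are those where all fish of 1 station lay above or below all fish of the other. Sums and figures were made with Python 3.11.15 (pandas 2.3.3, numpy 2.4.6, matplotlib 3.10.9), and the scripts were tested on simulated data.

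The members and all lists were chosen with earlier results of these data known. The names given with values were all organelle-encoded names, in each comparison the 6 largest positive and the 6 largest negative log2 fold changes of nucleus-encoded names, any called name, subunits with tissue forms, and listed pathway names with an unadjusted p under 0.05. Other names were chosen after their values were seen. Of the marker lists whose sums are not given above, the 6 red blood cell markers found summed to 17249 CPM in C2 and 3405 to 14255 CPM in the other fish, the 6 leukocyte markers to 486 and 308 to 623 CPM, and the 5 cartilage markers to 21.9 and 18.1 to 43.8 CPM.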

Additional observations from a re-analysis of the deposited data

Results flagged for a closer look

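A signal of members appeared outside the names counted above. Of all transcripts, 16 carried a member name only after a first entry of another protein, and they were left out of all sums. They held between 449 and 703 CPM of the library total per fish, over 6 member names. The transcript named EMC8 first and COX41 later made up 251 to 439.8 CPM of this, and 4 transcripts with NDUV2 as a later name 122 to 181 CPM, while the name NDUV2 itself, a subunit of the NADH-binding arm of complex I, stayed at or below 3.81 CPM. NDUB4, NDUS6, QCR7 and UCRI held the rest, each at or below 74.6 CPM.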

How the results depend on the processing

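Members called numbered 0 in all 3 comparisons under every alternative run, except for the 1 transcript that DESeq2 on single transcripts called between stations C and A. The count of members with an unadjusted p under 0.05 moved more. For station A against station B it was 2 in edgeR, 0 with all 9 fish in 1 fit or with no filter, 1 above 1 CPM in 2 fish, with library totals alone or with the likelihood ratio test, 5 on single transcripts, 10 with DESeq2 on single transcripts, and 0 to 3 when 1 fish was left out (0 without A2, B1 or B2 and 1 without A1). For station C against station B it was 0 in edgeR, 1 with DESeq2 on names, with all 9 fish in 1 fit, with library totals without organelle-encoded names or on single transcripts, 7 with DESeq2 on single transcripts, and 0 to 15 when 1 fish was left out (15 without C2, 2 without C1). For station C against station A it was 0 in edgeR, 1 with library totals alone, with the likelihood ratio test or on sums per assembled gene, 2 on single transcripts, 4 with DESeq2 on single transcripts, and 0 to 2 when 1 fish was left out (2 without C2). With the replicate number as a block it was 0 in each comparison, and 0 were called. The deviations of fish with the same number from their station means correlated by 0.079, 0.0062 and 0.19 between stations A and B, 0.0073, -0.074 and -0.078 between C and B, and -0.049, -0.11 and -0.10 between C and A, so the numbers were not taken to pair fish. Changes of sign were counted for organelle-encoded names, subunits with tissue forms and nucleus-encoded names with the largest log2 fold changes. Other names given with values were not counted. Over all alternatives 48 of 521 log2 fold changes changed sign for A over B, 54 of 507 for C over B and 44 of 490 for C over A. None of these names was called. Single fish carried much of this. Without A3, 15 of 33 names changed sign for A over B. Without C2, 18 of 32 did for C over B and 21 of 31 for C over A. The mean summed CPM of the nucleus-encoded names at station C was 9378 with C2 and 6099 without it. Leaving out the transcripts found in 3 fish only left these counts at 2, 0 and 0. The comparisons rest on 3 fish a station and hold 1 library whose markers go against its label. A call asked for more than 2-fold. Log2 fold changes of the size of the medians (from -0.46 to 0.33 for nucleus-encoded names) could thus not be called, whatever the number of fish.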
